A study of Mus musculus with 4 samples.

Results

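On the Agilent mouse arrays used to profile the cerebellum of mice lacking Derlin-2, 4450 of the 56605 non-control probes carry no gene name or accession. The scanner files list these probes by a chromosome interval alone, such as chr7:69005291-69007813, followed by the letter F or R, and they were selected by that form of name and by nothing measured. The probes cover 3230 intervals, here called regions. Per the labels' protocols, total RNA came from C57BL/6 mice, 2 per group, killed at postnatal day 28. Control mice were Derlin-2flox/flox, with both Derl2 alleles flanked by loxP sites, and knockout (KO) mice came from intercrossing Derl2flox/flox mice with mice whose Cre recombinase is driven by the nestin promoter. That promoter is active in neural precursors, so cells of other origin in the tissue may keep the gene. All groups therefore share the floxed allele, and no group with Cre alone is among the samples. The study asked how loss of Derlin-2, which sits in the membrane of the endoplasmic reticulum and helps to clear misfolded proteins from it, changes expression in the cerebellum. Where the labels do not say how a sample relates to an animal or a litter, the spread between arrays is the only error available, and p-values measure that spread.

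Arrays of this design carry probes for long intergenic noncoding RNAs, transcripts that are mostly spliced and polyadenylated like messenger RNAs but lack a long reading frame. Such RNAs are usually present at lower levels than messenger RNAs and are more often limited to 1 tissue or cell type, and brain expresses many of them. Some act on neighbouring genes or on chromatin, and for most no function is known. The files state neither that the listed regions are noncoding nor which genome build their coordinates follow, so genes, exons or introns at these positions were not analysed here. F and R were read as the forward and reverse strand of the listed region, because the files do not define the letters.

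The knockout was read first from Derl2 itself. All levels below are log2 signals less the 75th percentile of their array. On this scale probe A_51_P498831 read 2.13 and 2.20 in the controls and 0.81 and 0.70 in KO and a second probe, A_55_P2178203, differed by −1.73 (limma adjusted p 0.273 for each), so both were lower in the mice labelled KO. Between 66.4% and 69.4% of spots were well above background per array, 0 were saturated, and the number of arrays limits the precision. All 4 arrays lay on 1 slide, the controls at positions 1 and 2 and KO at positions 3 and 4, so position and group cannot be told apart. Markers of Purkinje cells, granule cells, oligodendrocytes, astrocytes with Bergmann glia and microglia (5, 6, 6, 5 and 5 genes) were well above background on every array, and the 4 caudal hindbrain Hox genes examined were on none. Oligodendrocyte and microglia markers were lower in KO, all 6 and all 5 of them, with median log2 differences of −0.20 and −0.23 and 1 gene of each list at an unadjusted p under 0.05 in limma (0 adjusted). Summed linear signal, as a multiple of the array's 75th percentile, was 335 to 353 in control and 294 to 324 in KO for the former and 15.6 to 16.1 and 12.5 to 14.6 for the latter. The other lists leaned the same way: 0 of 6 granule cell, 0 of 7 choroid plexus and 0 of 4 red blood cell markers were higher in KO. Of Purkinje cell markers and of astrocyte and Bergmann glia markers, 1 of 5 each was higher. The median difference was −0.08 for granule cells, Purkinje cells and astrocytes with Bergmann glia. Of probes with an NM_ accession, a class described below, 37.8% were higher, with a median of −0.06. In bulk tissue fewer cells of a type and less RNA per cell cannot be told apart. Control replicate 2 stood apart in choroid plexus markers: their summed signal was 140 there against 7.44, 7.81 and 7.88 on control replicate 1, KO replicate 1 and KO replicate 2. Red blood cell markers summed to 585 there against 396 to 413 on the other arrays. Control replicate 1 stood apart in local background: 1350 of its non-control spots lay on patches of raised background, against 32, 0 and 0 on control replicate 2 and the KO arrays, and 91 region probes had such a spot on control replicate 1. What these differences contributed to the results was not tested, except where values without an array or without patch spots are given.

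Region probes were spread over all autosomes and the X chromosome, from 95 probes on chromosome 19 to 343 on chromosome 1, with 0 on Y. The listed regions ran from 62 to 538251 bp, with a median of 7204 bp. F and R were almost equally frequent, with 2227 and 2222 probes, and 1 probe had no letter. Most regions, 2262 of 3230 (70.0%), were read by 1 probe, and no region had more than 8. Probes were placed on both strands of 832 regions (25.8%), on F alone in 1236 (38.3%) and on R alone in 1161 (35.9%). Regions with both strands were longer, with a median of 17551 bp against 2501 bp for regions with 1 strand.

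About 1 in 2 region probes gave a signal in this tissue. A probe counted as detected on an array when the scanner software marked most of its spots as well above background. The region probes detected numbered 2372 on control replicate 1, 2554 on control replicate 2, 2651 on KO replicate 1 and 2539 on KO replicate 2, or 53.3%, 57.4%, 59.6% and 57.1% of the 4450. Detection on all 4 arrays held for 2261 probes (50.8%), on no array for 1649 (37.1%) and on some arrays for 540. Control replicate 1, the array with the patches, had the smallest share, and the other control array lay between the KO arrays.

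Region probes were detected less often than probes for RefSeq messenger RNAs and more often than probes for RefSeq noncoding RNAs on every array. Probes with an NM_ accession, which marks a curated messenger RNA, were detected at 76.4% and 78.1% in the controls and at 78.2% and 77.4% in KO. The share for region probes was lower by 20.7 ± 1.84 percentage points (SD, n = 4 arrays), with per-array differences between −23.1 and −18.6. The direction was the same on 4 of 4 arrays, and an exact two-sided sign-flip permutation test gave the smallest p that 4 arrays allow, which is above 0.05. Probes with an NR_ accession, which marks a curated noncoding RNA, were detected at 45.1% to 47.6%. Predicted RefSeq models (XM_ or XR_) stood at 41.0% to 44.9%, and Ensembl transcripts (ENSMUST) at 59.4% to 64.7%. The plot of detection by class shows that the values of region, NM_ and NR_ probes did not overlap on any of the arrays, while region probes and the mixed remainder of the array, at 52.2% to 56.5%, lay close together.

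**Figure D1:**
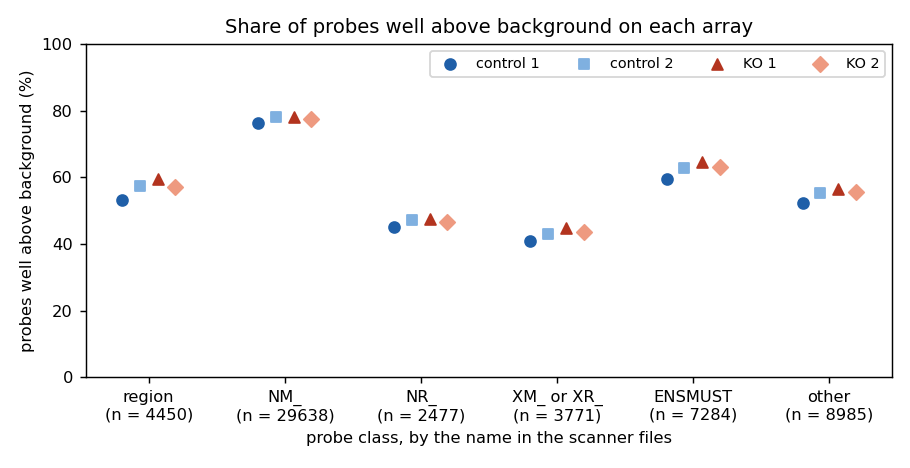
Percent of probes well above background on each of the 4 arrays (y axis), by the class of name in the scanner files (x axis, with the number of probes); each point is 1 array. Region probes sit between 53.3% and 59.6%, below NM_ probes at 76.4% to 78.2% and above NR_ probes at 45.1% to 47.6%.

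Over all probes the strands were detected about equally often. All-array detection held for 1127 F probes (50.6%) and 1133 R probes (51.0%), and the median KO minus control log2 difference was 0.02 for both. Within the 832 regions with probes on both strands, both strands were detected on all arrays in 279 (33.5%). F alone was detected on all arrays in 155 of them (18.6%), R alone in 210 (25.2%), and neither in 188 (22.6%), of which 100 gave no detection on any array on either strand. With the scanner's weaker flag, a signal positive and significant over background, the count with both strands became 489. Signal on both strands was thus common among these regions, and labelled antisense products or unspecific hybridisation were not tested as sources.

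Detection varied with the length of the listed region. With the probes in 5 classes of nearly equal number by length, 41.0% of those from regions of 62 to 810 bp were detected on all arrays. The share was 55.2% from 811 to 7035 bp, 49.9% from 7051 to 14649 bp, 51.6% from 14651 to 30951 bp and 56.3% from 31001 to 538251 bp. The class of shortest regions had the smallest share on each of the 4 arrays. The shortest region detected on all arrays was chr6:142918948-142919051 on strand F, 104 bp, whose probe A_30_P01026330 read 0.43 and 0.51 in the controls and 1.03 and 1.16 in KO, a log2 difference of 0.62 (SE 0.11). Overlapping probes on the same stretch, A_30_P01033003 and A_30_P01018197, differed by 0.34 and 0.28. The longest was chr3:34003359-34537330 on strand F, 533972 bp, whose probe A_30_P01026872 read −3.04 and −2.91 in the controls and −2.63 and −2.71 in KO.

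The brightest members hardly differed between groups. A_30_P01022075, for chr17:17481706-17482457 on strand R, had a log2 signal of 7.03 and 7.04 in the controls and 6.96 and 6.87 in KO. A_30_P01031448, for chr14:78924115-78938125 on strand F, read 7.03 and 6.85 in the controls and 7.0 and 6.98 in KO, and A_30_P01031264, for chr12:73838608-73862621 on strand R, read 6.96, 6.79, 6.86 and 6.80. A_30_P01023523, for chr6:116092274-116144199 on strand F, read 6.46, 6.21, 6.55 and 6.32, and A_30_P01024770, for chr8:89996710-90049453 on strand F, read 5.80, 6.41, 6.28 and 6.49. The groups overlapped for all but the first, whose KO arrays were lower by −0.12 (SE 0.10). The differences of the other 4 were 0.05, −0.05, 0.10 and 0.28, and each changed sign under at least 1 alternative.

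KO was compared with control for the 2510 region probes (56.4%) that both arrays of a group, or of both groups, marked as well above background, within a limma fit of all 37516 such probes on the array. A probe that is bright in 1 group alone passes this filter through that group, so the 2510 are not all members. No region probe passed a Benjamini-Hochberg adjusted p of 0.05 in limma, where 0% of all probes did, and 0.0531 was the smallest such value. Without control replicate 2, the array with the high choroid plexus markers, 46 passed, of which 38 were lower in KO and had a patch spot on control replicate 1. Without adjustment, limma gave a p under 0.05 for 493 region probes (19.6%), 323 higher and 170 lower in KO. The background over all probes was 14% in either direction, 8.84% higher and 5.2% lower. Without control replicate 1 the count was 248. Of the 493, the share that was higher in KO was 65.5%. It became 81.2% with scaling to spike-in probes and 76.4% with the percentile taken over detected probes alone. Over all probes tested, 3316 of the 5265 with such a p were higher. The counts were 712 of 1922 for NM_ probes, 936 of 1165 for ENSMUST probes and 1072 of 1266 for the mixed remainder.

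Among other classes, 8.41% of NM_ probes, 15.4% of NR_ probes and 15.3% of XM_ or XR_ probes had such a p. The share was 25.7% for ENSMUST probes and 25.9% for the mixed remainder of the array. Region probes thus lay above the former classes and below the latter. At like signal region probes had a larger share than NM_ probes in every band, and the gap was smallest from −5 to −4 in log2 signal. Below −5 on the log2 scale the share was 23.9% for region probes and 18.0% for NM_ probes, and from −5 to −4, the band with the most region probes, it was 17.3% and 15.5%. From −4 to −3 it was 20.8% and 12.06%, and from −3 to −2 it was 16.8% and 9.45%. From −2 to 0 it was 22.3% and 9.74%, and above 0 it was 16.4% and 4.98%. Over all probes tested the shares in the same bands, from low to high signal, were 21.9%, 17.5%, 18.5%, 16.5%, 16.6% and 7.81%. In the bands below −2 region probes thus lay within a few points of all probes, and above −2 their share was higher. NM_ probes made up 4950 of the 7957 probes tested from −2 to 0 and 11071 of the 14114 above 0. Above −2 the contrast is thus largely one with NM_ probes. The remaining classes were not read by band, so an excess particular to region probes is not shown. The median within-group SD was larger for region probes, 0.123 in control and 0.141 in KO against 0.0826 and 0.110 for NM_ probes. Probes are not independent replicates, and these shares are descriptions of 4 arrays.

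As a whole the region probes moved little. The median KO minus control log2 difference was 0.02, against −0.03 over all probes tested, with the 5th and 95th percentiles at −0.48 and 0.66. By pair of arrays the median was 0.02 and 0.07 for KO replicate 1 against control replicates 1 and 2, and −0.02 and 0.01 for KO replicate 2 against them. A difference above 0, of any size, was found for 1320 region probes (52.6%), against 45.2% of all probes tested. By class the share was 37.8% for NM_, 44.4% for NR_ and 50% for XM_ or XR_ probes. It was 58.7% for ENSMUST probes and 61.8% for the mixed remainder, so the share of region probes was not particular to them. The KO and control arrays did not overlap for 1263 region probes (50.3%), and the background was 49.3%.

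Differences of at least 2-fold with no overlap between the groups were found for 50 region probes (1.99%), 36 higher in KO (1.43%) and 14 lower (0.558%). The background was 1.18% in either direction, 0.608% higher and 0.568% lower. XM_ or XR_ probes had 2.37%, 26 higher and 12 lower. At like signal the shares of region probes and of all probes were closer. They were 6.68% and 5.78% below −5, 1.83% and 2.30% from −5 to −4, and 1.72% and 1.61% from −4 to −3. From −3 to −2 they were 0.551% and 0.924%, from −2 to 0 1.05% and 0.628%, and above 0 0.261% and 0.113%. Of the 36, 12 were detected on all 4 arrays, and 17 were detected in KO alone, as 3 of the 14 were in control alone, so that their fitted difference is not a measured fold. Counting these by the bound explained below left 23 higher and 13 lower. Signal was low for most: 26 of the 50 had a mean log2 signal below −5. Raised local background touched 7 of the 14 lower probes, 6 of them on control replicate 1, and 0 of the 36 higher probes. Leaving out patch spots gave 37 higher and 7 lower, and normexp background correction, which pulls dim signals together, gave 1 higher and 3 lower. Without control replicate 2, KO replicate 1 or KO replicate 2 in turn the count was 114, 93 and 120. The excess of higher probes did not hold without control replicate 2, where 52 were higher and 62 lower.

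**Figure D2:**
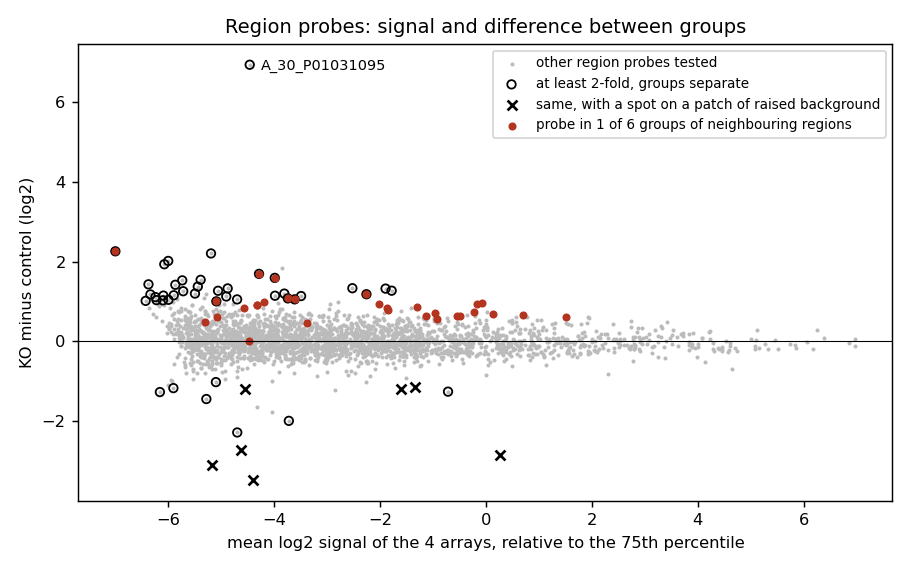
KO minus control log2 difference (y axis) against the mean log2 signal over the 4 arrays relative to the 75th percentile (x axis) for the 2510 region probes tested; open circles and crosses mark the 50 probes with a difference of 2-fold or more and no overlap of the groups, crosses those on raised local background, and filled points the probes of 6 groups of neighbouring regions. Most marked probes lie at low signal, and A_30_P01031095 lies apart from all others.

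The region probe with the largest difference was not detected in control and bright in KO. A_30_P01031095, for chr18:82862340-82875566 on strand F, 13227 bp, read −7.70 and −8.13 in the controls, not well above background, and −0.89 and −1.10 in KO. Where a group has no detected array, its level is only known to lie below the lowest signal that counted as well above background, or below its own reading if that is higher, and the difference is given as a bound against that level. By this bound the probe was at least 29.9-fold higher in KO, or 4.90 on the log2 scale. Its limma adjusted p was 0.0531, and over 14 alternatives it ran from 0.000394 to 0.434 and passed the threshold in 8. The overlapping probe on the other strand, A_30_P01022527, for chr18:82858314-82872414, was detected on 0 arrays. The next probe on strand F, A_30_P01020689, for chr18:82934418-82935002, was detected on 2 arrays and not tested, so no other region probe repeats the measurement.

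Detection in KO alone was more common than detection in control alone. Both KO arrays and no control array were well above background for 54 region probes (1.21%), against 0.624% of all probes, and both control arrays and no KO array for 6 (0.135%), against 0.115%. With the weaker flag the counts were 63 and 23. The lowest signal that counted as well above background was −5.69 on control replicate 1. It was −6.10 on control replicate 2 and −6.16 and −6.07 on KO replicates 1 and 2. A probe could thus miss detection on control replicate 1 at a level that counted in KO. A_30_P01025932 read −5.53 there, undetected, against −5.69 and −5.65 in KO. What this contributed to the counts was not tested. Most of the 54 were near the limit: their median bound was 1.24-fold, 4 had a bound of at least 2-fold, and for 4 the bound was under 1 and gives no fold. After A_30_P01031095 the largest bounds belonged to A_30_P01025609 and A_30_P01032520. A_30_P01025609, for chr10:84010161-84016083 on strand R, read −5.92 and −6.39 in the controls and −4.90 and −4.33 in KO, at least 2.44-fold higher (limma adjusted p 0.273). It lies within a listed region whose probe on the same strand differed the other way: A_30_P01029599, for chr10:84005221-84022896, read −1.98 and −1.96 in the controls and −2.49 and −2.52 in KO, a log2 difference of −0.53 (SE 0.10). The groups did not overlap on either probe. For A_30_P01025609 the choice by detection in KO alone favours this, so there it adds no support. A_30_P01032520, for chr18:61781410-61788685 on strand F, read −6.11 and −6.14 against −4.78 and −4.72, at least 2.21-fold higher (limma adjusted p 0.273). The F probes A_30_P01033285 and A_30_P01018031, whose listed regions lie inside that region, were detected on 0 arrays.

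Of the 6 probes detected in control alone, 2 had a bound of at least 2-fold, and both owed it to control replicate 1. A_30_P01030500, for chr8:37612672-37614507 on strand R, read −0.26 and −5.08 in the controls and −6.30 and −5.97 in KO, at least 10.5-fold higher in control (limma adjusted p 0.423). A_30_P01021359, for chr17:71183978-71185384 on strand F, read −1.49 and −5.77 against −6.06 and −7.38, at least 5.39-fold (limma adjusted p 0.437). Each had a patch spot on control replicate 1, and from control replicate 2 alone the bounds were 1.98-fold and 1.22-fold. The third, A_30_P01021246, for chr3:93156491-93157100 on strand R, had like values in both controls, −5.31 and −5.22 against −5.85 and −6.27 in KO, at least 1.62-fold higher in control.

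Among the 2261 region probes detected on all 4 arrays, 264 were higher and 160 lower in KO at an unadjusted p under 0.05 in limma. In a limma fit of such probes alone, the share at that p was 19.8% for region probes and 14.3% for all probes. The 8 of each direction with the smallest p in the main fit were examined singly. For each of these 16 the limma adjusted p was 0.273, so none passed. The KO and control arrays did not overlap, but a choice by smallest p on 2 against 2 arrays favours this, so it adds no support. Of all probes tested, 49.3% had no overlap. The smallest p among the higher probes belonged to A_30_P01033053, for chr7:69005291-69007813 on strand R, which read −4.19 and −3.92 in the controls and −2.91 and −2.93 in KO. Its log2 difference was 1.14 (SE 0.13), or 2.20-fold. A_30_P01027873, for chr1:135061034-135070387 on strand F, read −4.55 and −4.25 against −3.31 and −3.10, a difference of 1.20 (SE 0.16). A second F probe of that region, A_30_P01017599, was detected on 0 arrays, so the difference was seen with 1 probe of 2.

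The other 6 higher probes differed by between 0.72 and 0.95 on the log2 scale. A_30_P01029137, for chr3:126989696-127112471 on strand R, read −0.65 and −0.60 in the controls and 0.19 and 0.41 in KO, and A_30_P01024226, for chrX:20388085-20388552 on strand F, read −1.83 and −1.62 against −0.86 and −0.89. A_30_P01031649, for chr2:67412478-67412959 on strand F, read −5.05 and −4.92 against −4.10 and −4.22. These 3 lie in groups of neighbouring regions described below. A_30_P01018842, for chr7:66570691-66573827 on strand R, read −3.47 and −3.34 against −2.37 and −2.59, and the probe of a longer region that contains it, A_30_P01032226, differed the same way by 0.30 (SE 0.10). A_30_P01027813, for chr10:82074600-82085425 on strand F, read −2.30 and −2.25 against −1.53 and −1.58. A_30_P01029408, for chr10:21688115-21710890 on strand R, read −4.41 and −4.40 against −3.31 and −3.60. In that region the F strand probes A_30_P01022456 and A_30_P01027447 were detected in KO alone.

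The largest of the lower probes stood apart from the rest. A_30_P01024198, for chr14:30758342-30759669 on strand R, read −2.57 and −2.88 in the controls and −4.93 and −4.49 in KO, a log2 difference of −1.99 (SE 0.21), so that KO stood at 25.3% of control. It had no other region probe within 100 kb. The other 7 differed by between −0.99 and −0.57. A_30_P01023949, for chr10:24269165-24276690 on strand F, read −3.38 and −3.69 in the controls and −4.65 and −4.40 in KO, with KO at 50.2% of control. An R strand probe within the same stretch, A_30_P01032953, differed by 0.02 (SE 0.10).

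Neighbours of the lower probes differed in direction. A_30_P01032874, for chr13:28537223-28539860 on strand R, read −3.22 and −3.24 in the controls and −4.10 and −3.94 in KO. On the same strand A_30_P01020550, for chr13:28490070-28492645, was higher in KO by 0.62 (SE 0.10), and A_30_P01027179, whose listed region of chr13:28477490-28985604 spans both, differed by 0.01 (SE 0.12). A_30_P01028541, for chr15:62007025-62090191 on strand F, read −4.41 and −4.25 against −5.09 and −5.07. Of the 2 F probes of the region around it, chr15:61984389-62102500, A_30_P01025687 differed by −0.50 (SE 0.10) and A_30_P01029551 by 0.25 (SE 0.10). Next to it on the same strand A_30_P01031174, for chr15:62090565-62091770, read −0.22 and −0.21 in the controls and −0.50 and −0.45 in KO, a difference of −0.26 (SE 0.10), so 3 of these 4 F probes were lower in KO on both arrays. Probes of 1 listed region and strand can thus differ in direction, and the files do not give where in the region each lies.

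The remaining 4 lower probes had a low signal in both groups. A_30_P01021490, for chr4:40194362-40202712 on strand F, read −5.10 and −5.01 in the controls and −5.74 and −5.93 in KO. A_30_P01022325, for chr11:102833388-102833781 on strand F, read −4.17 and −4.32 against −4.93 and −4.96. A_30_P01018748, for chr3:9635102-9661327 on strand R, read −4.91 and −4.74 against −5.51 and −5.54. On these 3 probes the replicates of a group lay closer to each other than to any array of the other group, which the choice by smallest p also favours. A_30_P01019725, for chr1:141070245-141076841 on strand R, read −4.98 and −5.02 against −5.56 and −5.58, and the 2 F strand probes of the same region, A_30_P01025214 and A_30_P01021509, differed by 0.09 and 0.14.

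**Figure D3:**
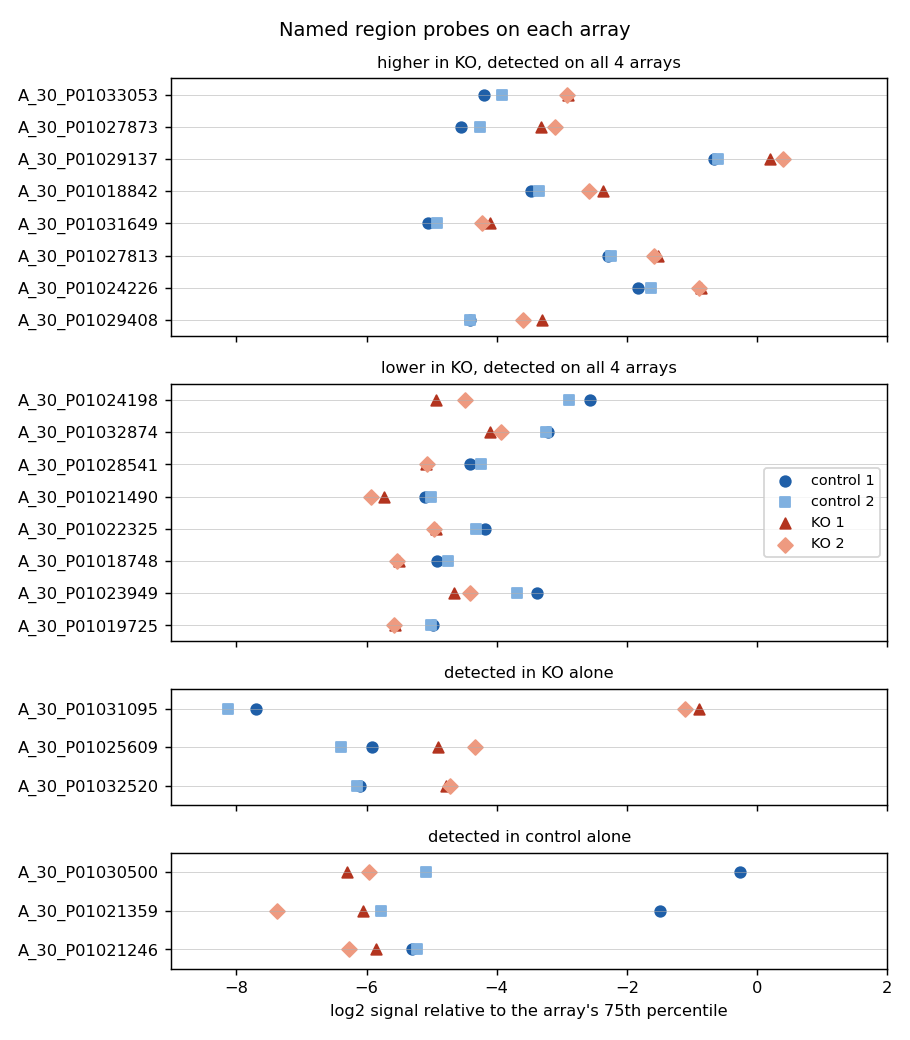
Log2 signal less the 75th percentile of its array (x axis) on each of the 4 arrays for single region probes (rows), in panels for probes higher or lower in KO and detected on all arrays, detected in KO alone and detected in control alone. The KO and control points do not overlap in any row, which the choice of these probes favours. On A_30_P01030500 and A_30_P01021359 control replicate 1 lies apart from the other 3 arrays.

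Both strands had a tested probe in 334 regions, and the 5 of them with the smallest p on either strand were read strand by strand. In 4 of the 5 the probe with the small p was detected in KO alone, so its difference is a bound. For chr3:127170996-127201096 the F probe A_30_P01018294 read 3.58 and 3.63 in the controls and 3.76 and 3.88 in KO, a log2 difference of 0.21 (SE 0.11). Its R probe A_30_P01018573 read −7.93 and −8.31 against −5.86 and −5.87, at least 1.02-fold higher in KO. For chr10:21542515-21579890 both probes, F A_30_P01017797 and R A_30_P01025932, were detected in KO alone; the former read −7.11 and −7.05 against −5.50 and −5.80, at least 1.18-fold higher. Both bounds lie close to the detection limit, so for neither region is a difference between its strands shown.

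The other 3 regions gave opposite signs on their strands. For chr9:36509939-36515389 the R probe A_30_P01025232 read −6.72 and −6.60 in the controls and −5.36 and −5.66 in KO, at least 1.31-fold higher. The R probes A_30_P01018456 and A_30_P01024890, whose listed regions lie inside it, were detected on 0 arrays. The F probe A_30_P01020857 read −2.83 and −4.03 against −3.88 and −4.21, a difference of −0.61 (SE 0.43) that became −0.01 without control replicate 1. For chr18:61781410-61788685, whose F probe was given above, the R probe A_30_P01017774 differed by −0.40 (SE 0.17). Another R probe of that region, A_30_P01032470, was detected on 0 arrays. In chr3:126989696-127112471, where every array detected both strands, the F probe A_30_P01027675 read −1.38 and −1.60 in the controls and −1.88 and −2.15 in KO, a difference of −0.53 (SE 0.15). On the R strand of that region A_30_P01029137 and A_30_P01023003 differed by 0.93 (SE 0.12) and 0.47 (SE 0.13). The groups overlapped on none of these 3 probes, and the strands differed in direction. The choice of regions by smallest p favours a lack of overlap, so it adds no support. Of the opposite-strand pairs described below only 54.7% had the same sign, so opposite signs were common among regions.

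Over all regions, probes of 1 strand resembled each other more than probes of opposite strands did. Only probes detected on all arrays and without patch spots were paired. Within a strand, 155 pairs from 121 regions had a median absolute gap between their log2 differences of 0.136, and 111 pairs (71.6%) had the same sign. Across strands, 322 pairs from 269 regions had a median gap of 0.252, and 176 pairs (54.7%) had the same sign. Pearson's r across pairs was 0.58 within a strand and 0.06 across strands, and Spearman's rho was 0.49 and 0.07. With patch-spot probes included, r within a strand was 0.26 and rho 0.43, over 162 pairs. All points share the 4 arrays, so these are descriptions and carry no test.

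**Figure D4:**
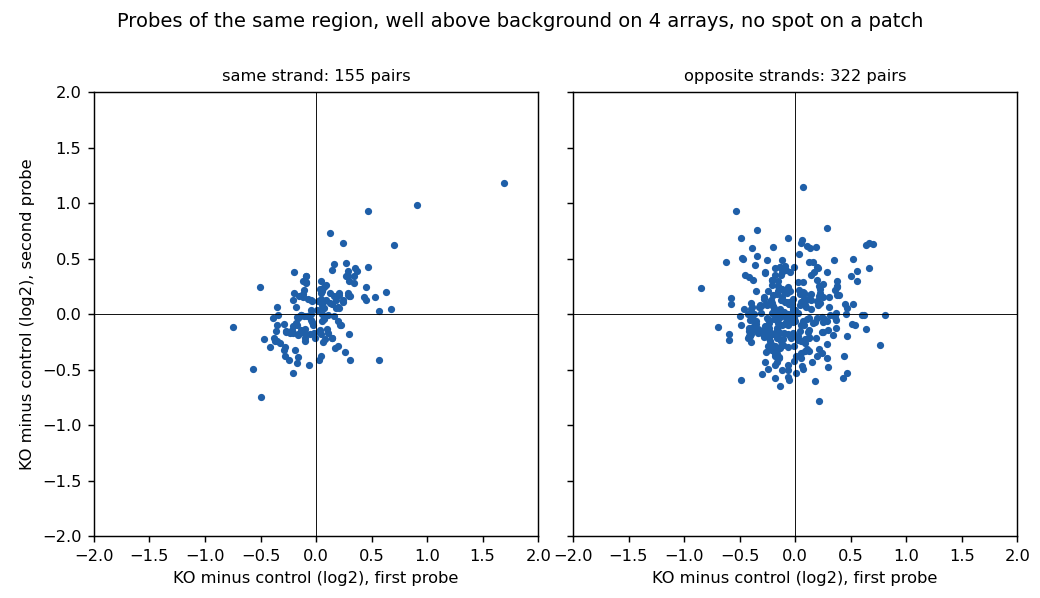
KO minus control log2 difference of 1 probe of a region (x axis) against another probe of the same region (y axis), for pairs on the same strand and on opposite strands; each point is a pair detected on all 4 arrays without a patch spot. Same-strand pairs lie nearer the diagonal, with a median gap of 0.136 against 0.252 for opposite strands.

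Regions next to each other on 1 strand were then read together, since several listed regions may belong to 1 transcript. Regions of the same strand with gaps of at most 100 kb were joined, and 148 such groups held tested probes of at least 3 regions. In 56 of them all tested probes had the same sign, 42 higher and 14 lower in KO. No reference share was worked out for these counts, and groups with few probes share a sign more easily. Probes of overlapping regions are also not independent, so the counts do not show that regions belong to 1 transcript. Of all region probes tested, 52.6% were higher in KO. The 6 groups with the largest median difference were all higher in KO; because they were taken for their size after the values were seen, they carry no test.

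On chromosome 1, strand R, 7 probes lay between 175654606 and 175717250, of which 6 were tested and the seventh was detected on 0 arrays. The median difference was 1.08, with a range of 0.61 to 1.69. The brightest, A_30_P01024163, read −2.98 and −2.71 in the controls and −2.16 and −1.16 in KO, and A_30_P01023338 of the same region read −5.42 and −4.83 against −3.98 and −2.89. KO replicate 2 was higher than KO replicate 1 on all 6 tested probes. The median was 1.57 without KO replicate 1, 0.59 without KO replicate 2 and 0.56 with normexp.

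On chromosome 3, strand R, 6 probes of 5 overlapping or adjoining regions between 126969590 and 127201919 had a median difference of 0.95. Each of the 6 was higher on both KO arrays than on either control array. A_30_P01019972, for chr3:127037711-127111912, read −0.62 and −0.49 in the controls and 0.28 and 0.56 in KO. A_30_P01027584, for chr3:127039311-127201919, read −0.30 and −0.14 against 0.37 and 0.58, and A_30_P01022360, for chr3:126969590-126972626, read −4.42 and −4.13 against −3.37 and −3.02. The probes A_30_P01029137, A_30_P01023003 and A_30_P01018573 given above complete the group. With A_30_P01018573, detected in KO alone, at its bound the median was 0.81, and with normexp it was 0.55. On the F strand of the same stretch, A_30_P01027675 was lower in KO and A_30_P01018294 higher, as given above.

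On the X chromosome, strand F, 7 short regions followed each other between 20374930 and 20389702, and 5 were tested. Their median difference was 0.92, or 0.51 with normexp. A_30_P01019405, for chrX:20381171-20381562, read −2.66 and −2.29 in the controls and −1.63 and −1.47 in KO, and A_30_P01023599, for chrX:20380294-20380946, read −4.30 and −3.97 against −2.92 and −3.24. A_30_P01019919, for chrX:20376867-20377837, read −4.92 and −4.62 against −3.64 and −4.07. The last region of the row, chrX:20389063-20389702, did not take part: its probe A_30_P01019627 read −4.37 and −4.57 against −4.53 and −4.41, a difference of 0.00 (SE 0.12).

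The other groups were shorter or showed smaller differences. On chromosome 2, strand F, the 3 regions between 67410825 and 67412959 had a median difference of 0.83, or 0.28 with normexp, and the brightest, A_30_P01029526, read −0.82 and −0.35 in the controls and 0.19 and 0.11 in KO. On chromosome 16, strand F, 5 probes between 40267386 and 40318856 differed by between 0.48 and 0.71, with no overlap of the groups on any of them. A_30_P01028174, for chr16:40267386-40268181, read 0.24 and 0.48 against 1.08 and 0.99, and A_30_P01033280, for chr16:40312038-40315564, read −1.38 and −1.23 against −0.64 and −0.55. The first of these groups is far shorter than the second.

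On chromosome 1, strand F, 5 regions between 139795171 and 139857204 differed by between 0.61 and 0.85. The brightest, A_30_P01026572, for chr1:139822286-139822985, read 1.13 and 1.29 in the controls and 1.84 and 1.80 in KO, and A_30_P01023370, for chr1:139856545-139857204, read −0.92 and −0.79 against −0.15 and −0.30. Control and KO arrays did not overlap on any of the 5. The next group in size lay on chromosome 7, strand R, between 69005291 and 69127242, and included A_30_P01033053. Its 6 probes differed by between 0.46 and 1.14, all at an unadjusted p under 0.05 in limma. A_30_P01017899, for chr7:69088784-69089906, read 1.58 and 1.74 in the controls and 2.27 and 2.20 in KO. The F strand probe over the same stretch, A_30_P01032698, for chr7:69024136-69131056, read 1.66 and 1.67 against 1.55 and 1.35. Its difference was −0.22 (SE 0.12; limma unadjusted p 0.137). The signs on the strands were opposite here as well, but a difference on the F strand is not shown.

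**Figure D5:**
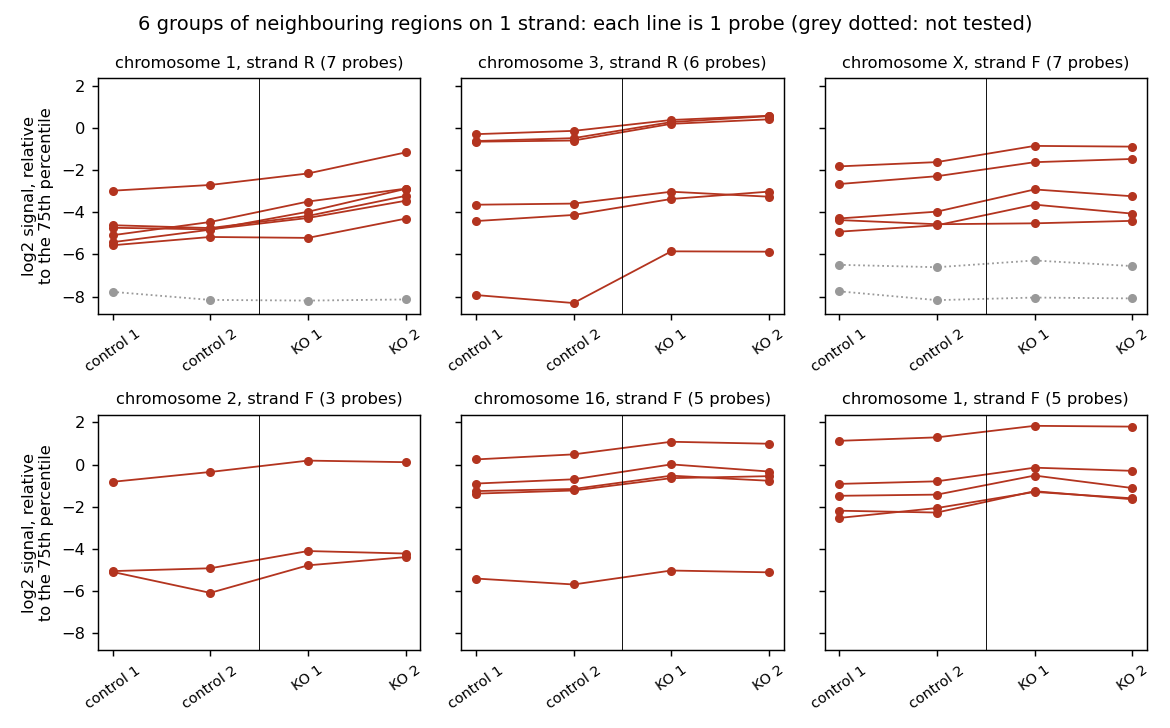
Log2 signal less the 75th percentile of its array (y axis) on the 2 control and 2 KO arrays (x axis) for the probes of 6 groups of neighbouring regions on 1 strand; each line is 1 probe, and grey dotted lines are probes that were not tested. The KO values lie above the control values for every tested probe except A_30_P01019627 on chromosome X and A_30_P01017895 on chromosome 1, strand R, and in the chromosome 1 strand R group KO replicate 2 lies above KO replicate 1.

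Long noncoding RNAs that do have a name on the array were read beside the region probes. Of 32 listed, 25 had a probe and 22 were tested; 17 of the 22 were higher in KO, with a median log2 difference of 0.10, and 0 passed an adjusted p of 0.05. At an unadjusted p under 0.05 in limma there were 3 of the 22, all higher, against 14% of all probes in either direction and 8.84% higher, so the list is near the background. Kcnq1ot1, an antisense RNA that silences neighbouring imprinted genes in cis, read 3.39 and 3.44 in the controls and 3.88 and 3.90 in KO, a difference of 0.47 (SE 0.10; limma adjusted p 0.273). Meg3, a maternally expressed imprinted RNA abundant in brain, read 5.63 and 5.63 against 6.09 and 5.88, a difference of 0.36 (SE 0.12; limma adjusted p 0.334). Snhg12, a host transcript of small nucleolar RNAs, read 1.51 and 1.36 against 1.90 and 1.75, a difference of 0.39 (SE 0.12; limma adjusted p 0.317). Of all probes tested, 45.2% were higher in KO.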

How the data were processed

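Samples were grouped by the labels. The deposited scanner files give a processed intensity, background subtracted within each array; the software was Agilent Feature Extraction, version 12.1.1.1 per the file headers and 10.7.1.1 per the submitters' processing notes. The authors' deposited series table holds log2 values, used as an alternative; its centring is not stated, and its column medians were 0.01, −0.19, −0.16 and −0.22. From the scanner files, log2 processed signal was averaged over a probe's spots, without control spots and outlier flags (65 to 176 spots per array), and the array's 75th percentile was subtracted. These percentiles were 9.64, 9.62, 9.57 and 9.50. For 5 region probes with 10 spots each, the coefficient of variation between spots was 1.86% to 5.08%. Probes well above background on both arrays of a group were tested with lmFit and eBayes (limma 3.58.1, R 4.3.3), without covariates, with Benjamini-Hochberg adjustment over 37516 probes; the fit had 4.35 degrees of freedom, 2.35 from the prior. The fit was tested on simulated data. No columns were left without a sample. Gene names came from RefSeq accessions through a table of GRCm38.p6, which named 32994 of 35886 such probes (91.9%).

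Members, lists and tests were chosen with earlier results of these data known. Probes were named by rule: the 8 with the smallest p per direction among those detected on all arrays, up to 3 per direction with the largest bounds, 5 regions tested on both strands with the smallest p, the 5 brightest, the longest and the shortest. Neighbours of these probes, and groups of neighbouring regions, were chosen after the values were seen. Alternatives were quantile, median and spike-in scaling, the percentile over detected probes, the authors' values, normexp on median spot intensities (offset 50), other filters, outlier or patch spots, robust variances with an intensity trend, the replicate block, each array left out and a 1.5-fold limit. A patch held spots whose local background exceeded the array's median by 1.5 times, and their neighbours within 2 rows or columns. Same-numbered samples deviated together with r = 0.12 over all probes and 0.16 over region probes; with 2 pairs this does not pair the samples.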

Additional observations from a re-analysis of the deposited data

How the results depend on the processing

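The count of region probes past an adjusted p of 0.05 in limma, 0 in the report (493 at an unadjusted p under 0.05), became 1 with quantile normalization, the median of detected probes, spike-in scaling (8 probes), normexp, patch spots left out or an intensity trend with robust variances; in each case it was A_30_P01031095. It ran from 0 to 46 over the arrays left out, with 2 without control replicate 1 and 46 without control replicate 2; of the 46, 40 were lower in KO and 38 of these had a patch spot on control replicate 1. The 50 probes that differed 2-fold with separate groups became 4 with normexp, 144 without a filter, 19 with detection on all arrays and 221 at 1.5-fold, and 60 to 120 over the arrays left out. The 493 became 248 to 464 over the arrays left out. The median difference, 0.02, was 0.0865 with spike-in scaling, −0.0445 without a filter and −0.0012 to 0.0704 over the arrays left out. The 279 regions detected on both strands became 489 with the weaker flag. The causes were not tested. The replicate numbers only name the samples. With the replicate block, 556 probes had an unadjusted p under 0.05 in limma (348 higher), against 493 without it. The counts of 50 that differed 2-fold and 0 past the adjusted threshold were unchanged.

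For 38 probes named by rule, 537 of 557 values under alternatives kept direction and call, 11 passed the threshold, and 9 changed sign, for which the cause was not tested: A_30_P01025932 was −0.0052 with normexp and −0.136 to 0.352 over the arrays left out, A_30_P01031448 −0.0377 to 0.141 over them, A_30_P01031264 0.0298 with quantile normalization, 0.0200 with spike-in scaling and −0.128 to 0.0343 over them, A_30_P01023523 −0.0245 to 0.224 over them, and A_30_P01024770 −0.024 to 0.584 over them. With normexp the difference of A_30_P01031095 was 2.75 and that of A_30_P01018573 0.21, while A_30_P01029137 and A_30_P01024226 differed by 0.82 and 0.67.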

Other observations

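Region probes on the X chromosome had the largest median difference of any chromosome. Of 174 such probes 95 were tested, with a median KO minus control log2 difference of 0.18 and pair-by-pair medians of 0.07 to 0.25, while the medians of the other chromosomes ran from −0.09 on chromosome 19 to 0.07 on chromosome 9. The share with an unadjusted p under 0.05 in limma was 29.5% on X, 29.2% on chromosomes 10 and 16 and 8.15% on chromosome 13. Detection on all arrays ran from 41.2% on chromosome 3 to 61.4% on chromosome 17.

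Single arrays also stood apart from the other 3 by at least 2-fold. Control replicate 1 was the high array for 16 region probes, of which 14 had a patch spot, and the low array for 9. Control replicate 2 was high for 4 and low for 9, KO replicate 1 for 5 and 6, and KO replicate 2 for 3 and 6. Among region probes tested these are shares of 0.12% to 0.637%, and among all probes tested the shares ran from 0.0933% to 0.741%; for control replicate 1 as the high array they were 0.637% and 0.741%, so region probes did not stand out there. A_30_P01020019, for chr11:112898724-113062945 on strand R, read −0.71, 4.09, −0.85 and −1.46, with a patch spot on control replicate 2. A_30_P01030416, for chr1:90340543-90359181 on strand R, had no patch spot and read −5.03, −2.08, −5.78 and −5.88; control replicate 2 was also the array with the high choroid plexus markers given above, whose part in this value was not tested. These 2 probes were singled out after their values were seen.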
